A study of Mus musculus with 15 samples.

Results

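Hox genes were followed by cluster and paralogue number in RNA sequencing data of the embryonic mouse pancreas. All genes of the deposited count table whose symbol was Hoxa, Hoxb, Hoxc or Hoxd with a number were taken, which gave 35 of 25292 genes. They comprised 11 genes of the HoxA cluster on chromosome 6 (chr6:52155367-52260880, mm10, minus strand), 10 of the HoxB cluster on chromosome 11 (chr11:96194316-96368256, plus strand), 6 of the HoxC cluster on chromosome 15 (chr15:102966796-103036843, plus strand) and 8 of the HoxD cluster on chromosome 2 (chr2:74668310-74765143, plus strand). By paralogue number, 11 were anterior (1 to 4), 11 central (5 to 8) and 13 posterior (9 to 13). Hoxc11, Hoxc12, Hoxc13 and Hoxd4 were not analysed here.

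The data comprised 15 libraries in 5 groups of 3, all of C57/Bl6J mice. Fresh pancreata of 14.5 dpc were either wild-type (wt) or S1pr2 null, the null with the allele S1pr2tm1Rlp of the receptor S1pr2 for sphingosine-1-phosphate in all cells of the embryo. Explants of wild-type 14.5 dpc pancreata, by the methods of the study dorsal buds, were kept for 2 days at an air-liquid interface in standard medium (control), with 15 μM of the S1pr2 antagonist JTE013 (JTE), or with 15 μM JTE013 and 50 ng/ml connective tissue growth factor (JTE with CTGF). Organs or explants of up to 3 embryos made up a library, so a value need not belong to a single embryo. Total counts were 11402804 to 13828737 reads per library. Pdx1, the transcription factor of pancreatic progenitors, was counted at 607 to 1607 reads in every library. S1pr2 itself was higher in the libraries labelled S1pr2 null (1358 ± 97.6 against 766 ± 5.87 normalised reads, SD, n = 3), so within these counts results for them rest on the label. The study genotyped its mice by PCR and reported no S1pr2 protein in null pancreata of 14.5 dpc by western blot. By the methods of the study the null allele is a disruption of the first exon by an inserted cassette, and a count over the whole gene does not show which part its reads cover.

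Hox genes encode homeodomain transcription factors that lie in 4 clusters. Paralogues at one end of a cluster are used in anterior parts of the body and those at the other end in posterior parts, and cells keep the combination that belongs to their position. In the gut and its outgrowths Hox genes are known mainly from the mesenchyme around the epithelium, and the pancreas arises from the foregut. Hox proteins bind DNA together with TALE cofactors of the Pbx, Meis and Pknox families.

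The start regions of 3 members are shown because they stand for the pattern of calls in the S1pr2 null comparison. Hoxa5 and Hoxb8 were called higher in the libraries labelled S1pr2 null, while Hoxd8 comes from the cluster without a called gene. Hoxd8 was higher as well, without overlap of the groups, but narrowly missed the threshold (log2 0.42, adjusted p = 0.055, edgeR). Each runs 5′ to 3′ on the gene's strand, from 250 bases before the start to 50 after it (RefSeq, GRCm38.p6). They lie at chr6:52204538-52204837 (minus strand), chr11:96281655-96281954 (plus) and chr2:74704365-74704664 (plus).
Hoxa5: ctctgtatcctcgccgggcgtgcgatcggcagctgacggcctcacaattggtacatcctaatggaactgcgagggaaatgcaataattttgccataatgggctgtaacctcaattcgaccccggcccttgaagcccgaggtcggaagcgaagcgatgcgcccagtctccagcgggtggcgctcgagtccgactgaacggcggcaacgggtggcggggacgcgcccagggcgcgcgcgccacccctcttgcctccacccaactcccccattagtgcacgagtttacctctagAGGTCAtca
Hoxb8: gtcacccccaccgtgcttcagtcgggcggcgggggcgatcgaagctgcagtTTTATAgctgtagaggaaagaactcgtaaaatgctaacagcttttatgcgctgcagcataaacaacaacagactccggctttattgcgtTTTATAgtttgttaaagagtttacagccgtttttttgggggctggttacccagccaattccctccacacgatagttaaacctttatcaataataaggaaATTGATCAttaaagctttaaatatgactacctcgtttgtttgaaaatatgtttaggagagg
Hoxd8: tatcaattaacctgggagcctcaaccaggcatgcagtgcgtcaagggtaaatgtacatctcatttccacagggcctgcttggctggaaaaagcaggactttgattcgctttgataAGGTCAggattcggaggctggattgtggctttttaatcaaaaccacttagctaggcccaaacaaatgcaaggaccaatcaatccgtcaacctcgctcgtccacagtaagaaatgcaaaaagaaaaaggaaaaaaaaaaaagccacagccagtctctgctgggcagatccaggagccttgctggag
Capitals mark matches on either strand to 3 motifs. These were TGATNNAT, the letters of a joint Hox and Pbx site, and TATAAA, those of a TATA box. AGGTCA was the last, the half-site of nuclear receptors that include those for retinoic acid. Matches were taken at any position, and the TATAAA matches in Hoxb8 lie on the opposite strand, as TTTATA. Of the 35 members 21 had a start region in the RefSeq table. A member was counted if any of its regions matched, while the shares of all are per region, so the units differ. TGATNNAT was in 4 of these 21 (19.0%, in Hoxa2, Hoxb1, Hoxb8 and Hoxd11) and in 8.85% of all 32851 start regions. TATAAA was in 3 (14.3%) and in 13.6% of all, and AGGTCA in 6 (28.6%) and in 16.3% of all. A match describes the letters and is not a site in use, and AGGTCA was found alike in Hoxa5 and in Hoxd8.

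In wt pancreata, Hox expression was that of anterior and central paralogues, mostly of HoxA and HoxB. Per kb of exon, which allows genes to be compared, Hoxa5 had the highest level at 195 ± 12.3 normalised reads per kb (SD, n = 3). Hoxa5 is known for its need in the mesenchyme of foregut organs such as the lung. Hoxb3 followed at 112 ± 2.65, and these 2 genes were separated from each other and from the rest by more than the spread. Hoxb6 (68.2 ± 8.17), Hoxb5 (66.7 ± 4.43), Hoxb4 (60.9 ± 2.92) and Hoxb2 (59.9 ± 2.12) came next, and neighbours in this order did not differ beyond their spread. In HoxA, HoxB and HoxC levels were low towards the posterior end: in HoxB they went from 17.6 normalised reads per kb for Hoxb7 to 7.39 for Hoxb8 and 4.46 for Hoxb9. HoxA dropped from Hoxa5 to 20.9 for Hoxa6 and 7.75 for Hoxa7, and HoxC from 38.8 for Hoxc4 to 2.49 for Hoxc6. HoxD was low and of another shape, with 23.8 for Hoxd8, 9.97 for Hoxd9 and 8.33 for Hoxd3. A neighbour can raise or lower some of these levels, and how reads over shared bases were counted is not given. Hoxb8 shares 40.4% of its exonic bases with Hoxb7 on the same strand, and Hoxd3 shares 29.8% with an unnamed gene on its strand. Hoxb2 and Hoxb3 share 49.4% and 37.9% with the antisense RNA Hoxb3os. Whether the counting used the strand is not given in the sources used here.

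**Figure D1:**
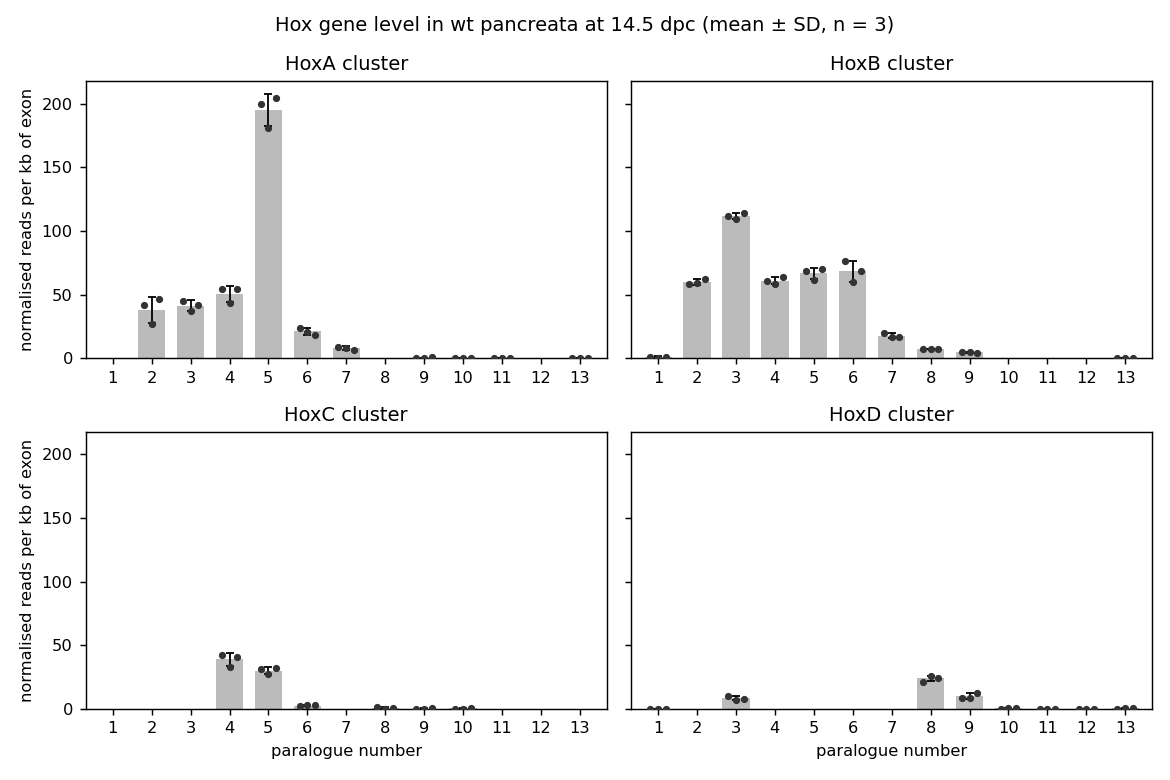
Level of Hox genes in wt pancreata at 14.5 dpc in normalised reads per kb of exon, by paralogue number (x axis) in the 4 clusters. Bars are means, points the 3 libraries and error bars the SD, and Hoxa5 at 195 and Hoxb3 at 112 stand above all other members. Places without points hold no gene or one that is not shown.

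In all, 21 of the 35 members had enough reads to be tested and 14 did not. The 14 were Hoxa9, Hoxa10, Hoxa11, Hoxa13, Hoxb1, Hoxb13, Hoxc8, Hoxc9, Hoxc10, Hoxd1, Hoxd10, Hoxd11, Hoxd12 and Hoxd13. Hoxa11, Hoxc8, Hoxc9, Hoxc10, Hoxd1, Hoxd10 and Hoxd11 had at most 3 reads in each of the 15 libraries. The untested paralogues 10 to 13 pattern the hindgut, the urogenital tract and the distal limb. Hoxc6 was tested only through the libraries labelled S1pr2 null, in which all 3 reached the required level and no other group did, so its difference was built into the filter. Hoxa7 and Hoxb9 reached that level in part of the libraries, and with JTE and CTGF 0 of 3 libraries reached it for Hoxa6 and 1 of 3 for Hoxc5.

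**Figure D2:**
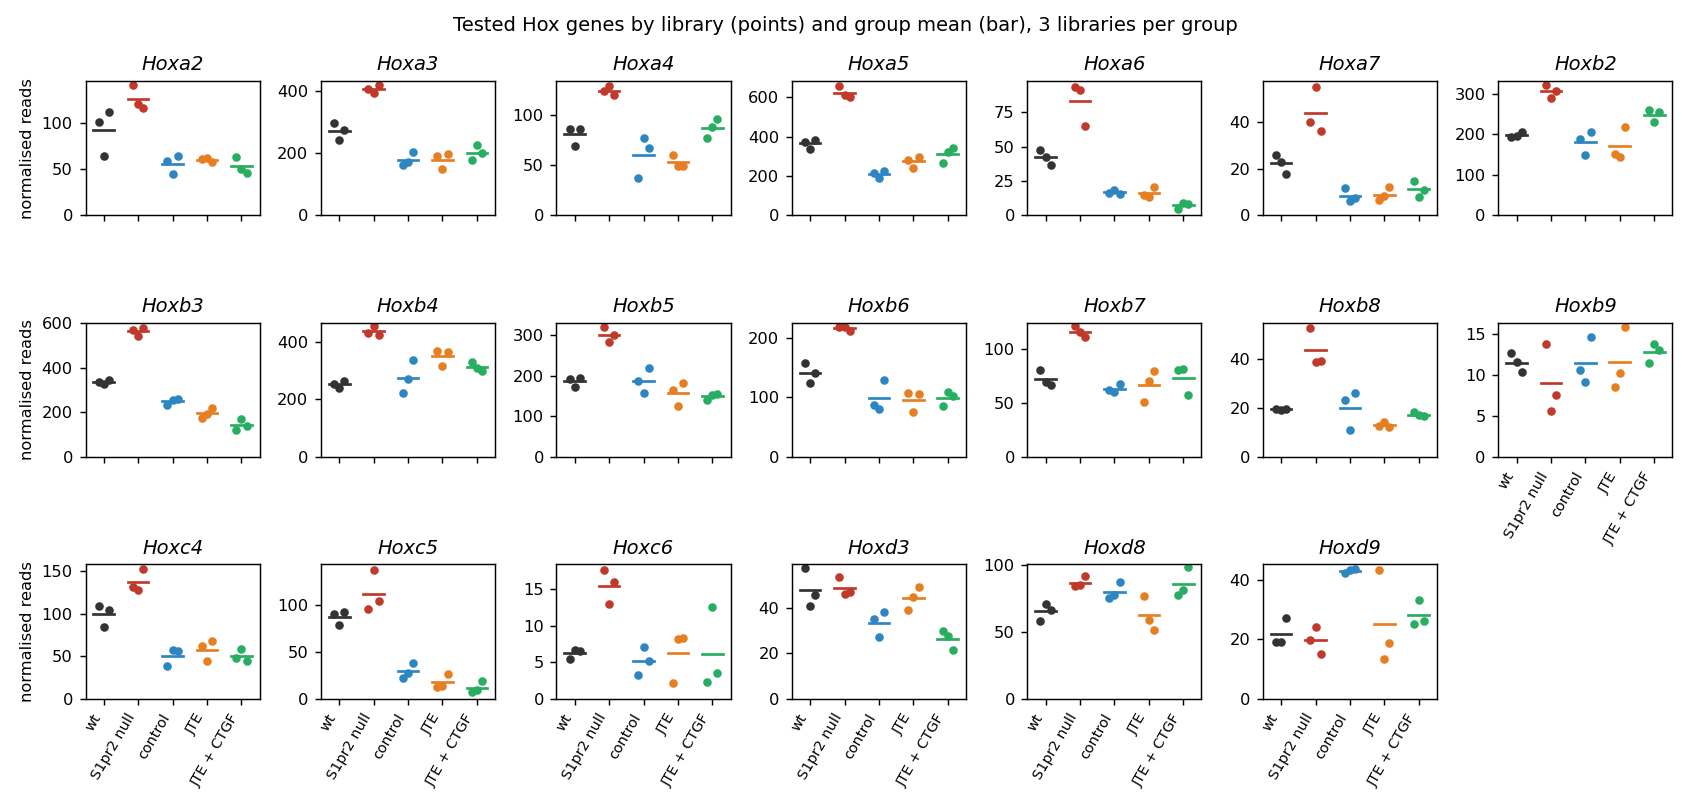
Normalised reads (y axis, from 0, own scale in each panel) of tested Hox genes in the 5 groups. Points are libraries and short lines the means of 3. Of the genes shown, 17 have no overlap between the wt and the S1pr2 null points. Among them is Hoxc6, tested only through the null libraries.

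The first comparison asked how Hox genes differ between pancreata labelled S1pr2 null and wt at the same stage. Of 21 tested members 14 were higher and 0 lower in the libraries labelled S1pr2 null at an adjusted p below 0.05 (edgeR, over all genes), where 25.8% of all 16245 genes tested were called, 12.6% as higher and 13.3% as lower. With DESeq2, 12 were higher and 0 lower. Without Hoxc6, whose difference the filter built in, 13 of 20 were higher in a count added after the values were seen, with 1 of 2 HoxC and 7 of 9 central members. The 14 were 5 of 7 HoxA, 7 of 8 HoxB and 2 of 3 HoxC genes, and none of 3 HoxD genes. By position they were 6 of 9 anterior and 8 of 10 central paralogues and 0 of 2 posterior ones. The median log2 fold change was 0.621 over the 21 members, 0.616 without Hoxc6 and −0.01 over all genes tested. The groups did not overlap for 17 members, or 16 of 20 without Hoxc6, against 46.3% of all genes. Among these members 5 (Hoxa5, Hoxb3, Hoxb4, Hoxb5 and Hoxb7) met the criterion of the study, a mean above 100 normalised reads and a change below 0.6 or above 1.6 times at an adjusted p of at most 0.1, as did 3.00% of all genes.

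Hoxa5 was counted at 416, 355 and 409 reads in the wt libraries and at 673, 662 and 714 in those labelled S1pr2 null. Its mean rose from 366 ± 23.1 to 624 ± 31.9 normalised reads (log2 fold change 0.77 ± 0.09, SE, adjusted p = 1.37e-05, edgeR). All 3 null libraries stood above all wt libraries. Hoxb4, known from the hindbrain boundary and from blood stem cells, had 281, 251 and 282 reads in wt and 438, 492 and 503 in the null libraries (log2 0.79 ± 0.11, adjusted p = 5.55e-05). Hoxb3, used with Hoxa3 in the neck region and pharynx, had 374, 342 and 366 against 581, 584 and 687 (0.74 ± 0.09, adjusted p = 1.65e-05). These 3 genes were among those with the most reads, and their log2 fold changes lay between 0.74 and 0.79. Hoxa6 had 53, 44 and 39 reads in wt and 95, 99 and 77 in the null libraries (0.97 ± 0.19, adjusted p = 0.00132). Hoxa7 had 29, 24 and 19 against 41, 60 and 43 (0.97 ± 0.25, adjusted p = 0.00886). Hoxb8 had 22, 20 and 21 against 54, 42 and 47 (1.15 ± 0.24, adjusted p = 0.00188), with the shared exon named above. Hoxa6, Hoxa7 and Hoxb8 mark central levels of the trunk, and their groups did not overlap. Hoxc6, a gene of the thoracic and forelimb level, had 6, 7 and 7 reads against 18, 14 and 19 (1.30 ± 0.44, adjusted p = 0.0387), and its call was lost with DESeq2 (adjusted p = 0.106) and without any 1 of the 6 libraries. Hoxa7 was lost without wt 3 (adjusted p = 0.0508) or S1pr2 null 2 (0.0608). The other called members, Hoxa3, Hoxa4, Hoxb2, Hoxb5, Hoxb6, Hoxb7 and Hoxc4, had log2 fold changes of 0.47 to 0.69. Of these, Hoxa4 was lost without wt 2 (adjusted p = 0.0878) or S1pr2 null 2 (0.058), and Hoxc4 without wt 2, wt 3 or any null library (0.064 to 0.187), without JTE 1 (0.0509) and with DESeq2 (0.0594). Members that did not pass included Hoxa2 (0.44), Hoxb9 (−0.37), Hoxc5 (0.36), Hoxd3 (0.02), Hoxd8 (0.42, adjusted p = 0.055) and Hoxd9 (−0.16). The groups of Hoxd8 did not overlap. It was called with only the libraries compared (adjusted p = 0.023, edgeR), without JTE 1 (0.035) and without JTE 3 (0.039). Hoxa2 was called with only the libraries compared (0.0471) and without wt 3 (0.0408).

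Summed over a cluster, HoxA reads were 813 to 967 normalised reads in wt and 1405 to 1500 in the null libraries, and HoxB reads 1163 to 1251 and 1954 to 2052. HoxC reads were 171 to 208 and 246 to 279, and HoxD reads 133 to 142 and 154 to 170. The balance between the large clusters stayed within the range of the libraries: the ratio of HoxA to HoxB was 0.699 to 0.774 in wt and 0.708 to 0.750 in the null libraries. HoxD made up 5.28% to 5.84% of Hox reads in wt and 4.03% to 4.39% in the null libraries. These sums were not tested, because the members were taken with results known.

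**Figure D3:**
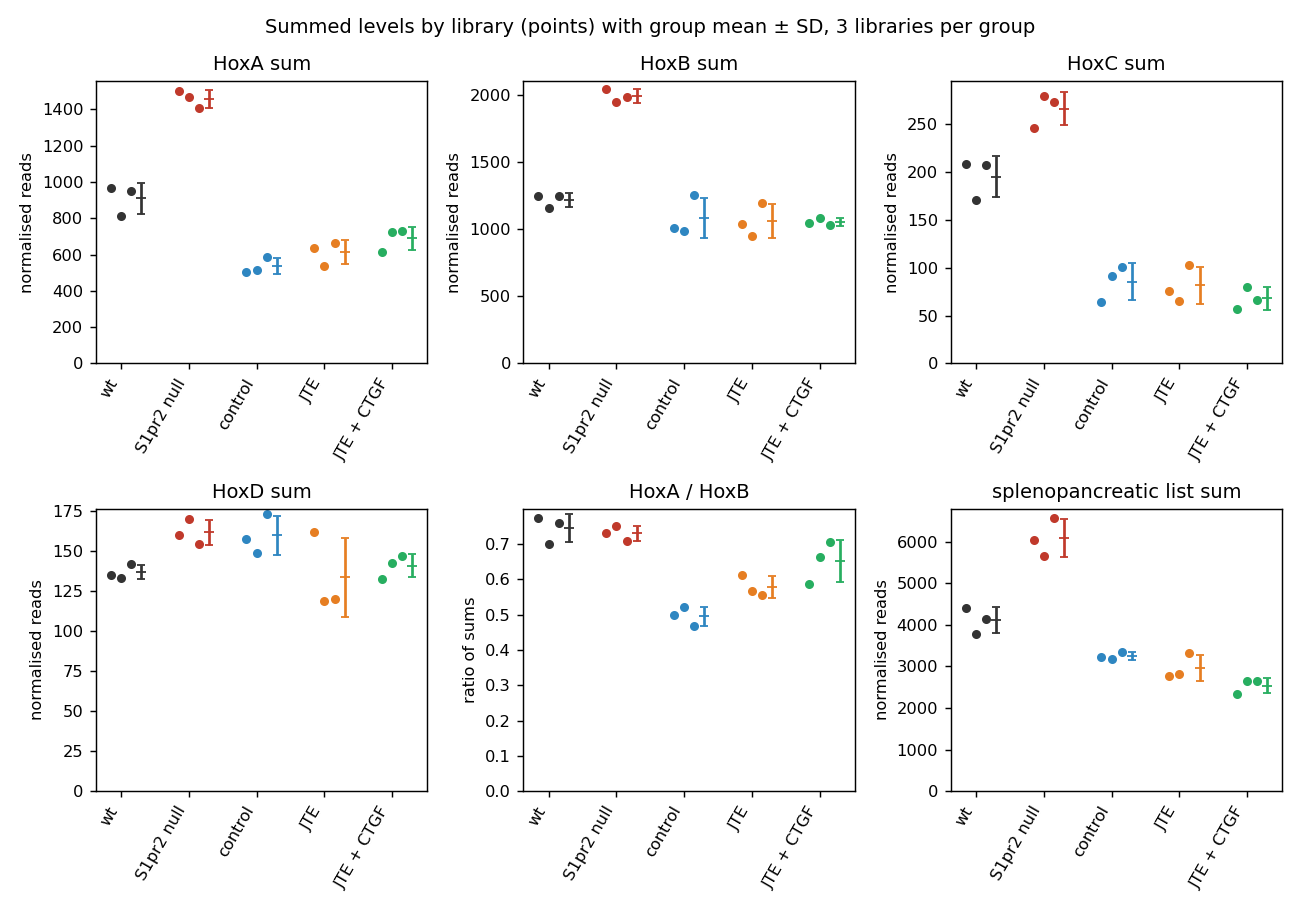
Summed normalised reads of each Hox cluster, the ratio of the HoxA to the HoxB sum, and the sum of the spleen and splenopancreatic mesenchyme list (y axes, from 0) in the 5 groups. Points are libraries, bars the mean ± SD of 3, and the HoxA to HoxB ratio is 0.699 to 0.774 in wt and 0.468 to 0.521 in control explants.

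Markers of cell types moved with this comparison. In bulk RNA a change in the share of a cell type and a change in RNA per cell cannot be told apart. General epithelium markers were lower for 9 of 10 genes and higher for none (summed 21420 to 22660 against 29080 to 31440 normalised reads, median log2 −0.45). General mesenchyme markers went both ways, with 8 of 16 higher and 6 lower, and their sum was 116200 to 136100 normalised reads against 144300 to 146200. Per 1000 reads of that list there were 29.1 to 33.3 Hox reads in the null and 15.6 to 17.7 in the wt libraries. Most of the mesenchyme sum came from Col1a1, Col1a2 and Col3a1, whose means were all lower in the null libraries. They stood at 31440 against 40700, 28340 against 31770 and 41580 against 50670 normalised reads. The ratio thus mainly sets Hox against collagen reads, while the median log2 fold change of the list was 0.25. Of the 6 genes that mark mesenchyme of spleen and pancreas 5 were higher and none lower (median log2 0.87, sum 5659 to 6579 against 3782 to 4416). Named by size of change these were Nkx2-5 (2.06 ± 0.50, adjusted p = 0.00586), Nkx3-2 (1.16 ± 0.15, adjusted p = 2.66e-05), Tlx1 (1.09 ± 0.19, adjusted p = 4.05e-04) and Barx1 (0.65 ± 0.12, adjusted p = 6.12e-04), transcription factors of splenic and stomach mesenchyme. Per 1000 reads of the splenopancreatic list there were 580 to 684 Hox reads in the null and 580 to 615 in the wt libraries, so on this scale, chosen after values were seen, the groups overlapped. The library S1pr2 null 3 held 160 reads of Nkx2-5 and 596 of Tlx1, while the other 2 held 44 and 42, and 342 and 318. Without it, 12 Hox genes were higher. The part of these cell types in the Hox result was not tested.

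Other lists gave this in the same comparison. TALE cofactors were higher for 6 of 9 and lower for 1, with Pknox2 at 1.17 ± 0.14, Meis1 at 0.58 ± 0.07 and Pbx4 at −0.94 ± 0.27. Of 23 Polycomb and Trithorax genes, which keep Hox clusters silent or active, 4 were higher and 1 lower, among them Cbx2 at 0.54 ± 0.07 and Cbx7 at −0.63 ± 0.13. RNAs transcribed inside the Hox clusters were higher for 3 of 5 tested: Hoxb5os at 0.86 ± 0.26, Hoxb3os at 0.72 ± 0.19 and Hotairm1 at 0.54 ± 0.19. Genes that flank the clusters were higher for 2 and lower for 1 of 7 tested (median log2 0.02). Of the ParaHox genes only Pdx1 had enough reads and it was not called. Gastric markers were higher for 2 and lower for 1 of 4, intestinal epithelium higher for 0 and lower for 1 of 4, urogenital markers 1 and 0 of 4, and neural crest markers 2 and 1 of 10. Mesothelium markers were higher for 0 and lower for 1 of 6, endothelium 1 and 0 of 6, blood 0 and 1 of 7, and muscle and limb markers 1 and 1 of 5.

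The library S1pr2 null 2 stood apart in posterior Hox genes. Summed over the 9 paralogues numbered 10 to 13 it held 36 reads (95% exact Poisson interval 25.2 to 49.8, for counting error only), while the other 14 libraries held 0 to 5, with a median of 2. Its reads came from 8 of the 9 genes, with 8 of Hoxb13, 7 of Hoxd13, 6 of Hoxa10, 4 each of Hoxa13 and Hoxd12, 3 of Hoxd10 and 2 each of Hoxa11 and Hoxd11. S1pr2 null 1 and S1pr2 null 3 held 0 reads of these genes, so this is a feature of 1 library and not of its group. The same library had 9 reads of Hoxa11os and 12 of Shh, a signal of gut and limb, where others had 0 to 1 and 0 to 3. None of these 9 Hox genes was tested, and they add 36 of the reads behind a Hox sum of 3868 normalised reads in that library. Without it, 10 members were called higher in the null libraries and 0 lower, with the calls of Hoxa4, Hoxa7, Hoxc4 and Hoxc6 lost.

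**Figure D4:**
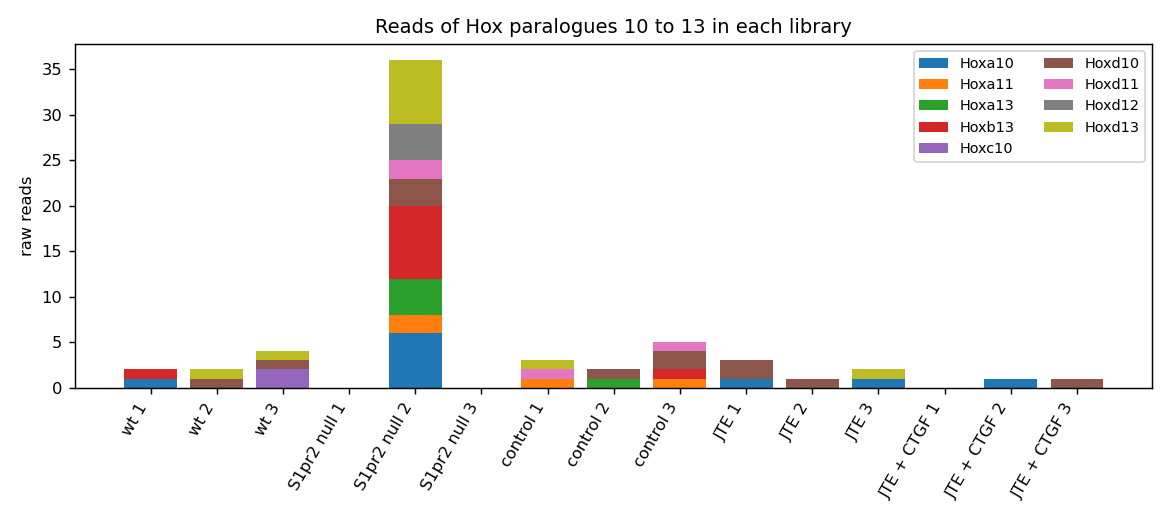
Reads of Hox paralogues 10 to 13 (y axis, raw reads, stacked by gene) in each of the 15 libraries (x axis). S1pr2 null 2 holds 36 reads over 8 genes and each other library 0 to 5.

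The second comparison set control explants against wt pancreata. It spans 2 days of culture, the age of the tissue and the dorsal bud against the whole organ, which cannot be told apart. It shares the wt libraries with the first comparison. Of 21 tested members 11 were lower and 1 higher in control explants, where 57.8% of all genes tested were called, 29.3% as lower and 28.5% as higher. The groups did not overlap for 11 members, against 63.8% of all genes. The share of members called was therefore close to that of all genes, but their directions were unequal, with a median log2 fold change of −0.43 against −0.02 over all genes. By cluster, with no test between clusters, HoxA genes were lower for 6 of 7 (median −0.81) and HoxC genes for 2 of 3 (median −0.97), while HoxB genes were lower for 2 of 8 (median −0.07). Of the 3 HoxD genes 1 was lower and 1 higher.

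Hoxc5 fell from 101, 83 and 99 reads in wt to 21, 27 and 37 in control explants, a log2 fold change of −1.58 ± 0.26 (adjusted p = 5.88e-05). The groups did not overlap. Hoxa7 fell from 29, 24 and 19 reads to 11, 6 and 7 (−1.42 ± 0.33, adjusted p = 0.00158), and Hoxa6 from 53, 44 and 39 to 15, 18 and 15 (−1.34 ± 0.24, adjusted p = 1.37e-04). Hoxc4 changed by −0.97 ± 0.19 (adjusted p = 2.63e-04) and Hoxa5 by −0.81 ± 0.10 (adjusted p = 3.23e-06), the latter from 366 ± 23.1 to 210 ± 17.8 normalised reads. Hoxa5 alone met the criterion of the study, as did 12.1% of all genes. Within HoxB, Hoxb4 (0.13), Hoxb5 (−0.00) and Hoxb8 (0.04) lay near 0 and did not pass the test, and the call of Hoxb6 (−0.52) was lost without wt 1, control 1 or control 2 (adjusted p = 0.0582 to 0.0783). In HoxD the call of Hoxd3 (−0.53) was lost without wt 1 (adjusted p = 0.141) or control 2 (0.126), with DESeq2 (0.101), without a filter (0.065) and with only the libraries compared (0.0579). Hoxd9, a paralogue of the posterior class, was the only member called higher: 21, 20 and 29 reads in wt and 40, 43 and 42 in control explants (0.98 ± 0.31, adjusted p = 0.0121). Hoxd8 (0.29, adjusted p = 0.117) did not pass, though its groups did not overlap. The ratio of HoxA to HoxB reads was 0.699 to 0.774 in wt and 0.468 to 0.521 in control explants, which did not overlap, and HoxA made up 35.7% to 37.8% and 27.8% to 29.6% of Hox reads.

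RNAs inside the clusters were lower for 4 of 5 tested in control explants: Hotairm1 at −1.88 ± 0.24, Hoxaas3 at −1.54 ± 0.30, Hoxaas2 at −1.22 ± 0.30 and Hoxb3os at −0.74 ± 0.21. Of these, 3 lie in HoxA. TALE cofactors were lower for 6 of 9 and higher for 1, with Pbx4 at −1.14 ± 0.28 and Meis1 at −0.54 ± 0.08. Markers of the splenopancreatic mesenchyme were lower for 4 of 6 and higher for none, with Nkx3-2 at −1.17 ± 0.17, and those of general epithelium were higher for 7 of 10 and lower for none. General mesenchyme went both ways, with 6 of 16 higher and 4 lower. Mesothelium markers were lower for 4 and higher for 2 of 6 (median log2 −1.18), blood lower for 4 and higher for 1 of 7 (−1.59), urogenital lower for 2 and higher for 1 of 4 (−0.93), neural crest lower for 4 and higher for 1 of 10 (−0.14), and endothelium lower for 3 and higher for 2 of 6 (−0.26). Per 1000 reads of the mesenchyme list, most of them collagen reads, there were 12.5 to 14.6 Hox reads in control explants, below the 15.6 to 17.7 of wt. Per 1000 reads of the splenopancreatic list there were 541 to 632, which overlapped with 580 to 615 in wt. Their part in the Hox result was not tested.

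**Figure D5:**
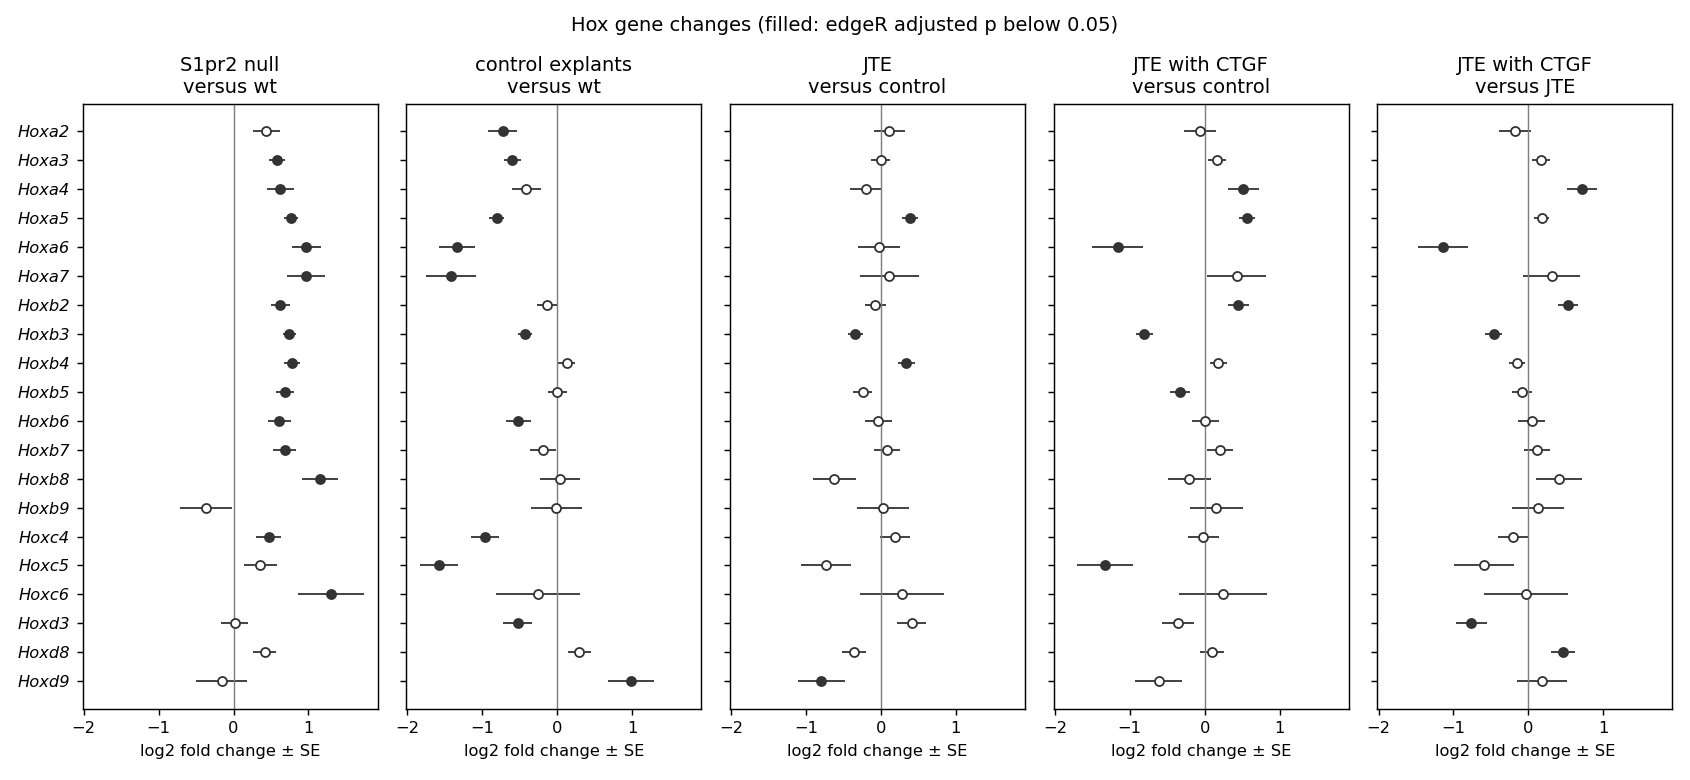
Log2 fold change ± SE (x axis) of tested Hox genes in 5 comparisons. Filled points have an edgeR adjusted p below 0.05: 14 are filled in the first panel, all above 0, and 4 in the panel of JTE versus control. The 14 include Hoxc6, which was tested only through the null libraries.

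JTE versus control asked how the antagonist acted on Hox genes in explants. This comparison shares the control libraries with the previous one. Of 21 members 3 were higher and 2 lower with JTE, a smaller share than the 52.2% of all genes that were called (25.9% higher, 26.2% lower). The groups did not overlap for 4 members, against 56.7% of all genes. The median log2 fold change was −0.01 against 0.00 over all genes, and no member met the criterion of the study, which 8.25% of all genes met. Hoxa5 rose from 201, 189 and 216 reads in control to 267, 236 and 321 with JTE (0.39 ± 0.10, adjusted p = 0.00474). Hoxb3 fell from 219, 253 and 249 to 166, 189 and 235 (−0.34 ± 0.10, adjusted p = 0.00957), without overlap on the normalised scale, and its call was lost without JTE 1 (adjusted p = 0.0513). Hoxb4 (0.34 ± 0.11, adjusted p = 0.0154) and Hoxd9 (−0.79 ± 0.31, adjusted p = 0.0398) were called with groups that overlapped. Hoxb4 was lost without control 1 (0.21, adjusted p = 0.0958), without JTE 1 (adjusted p = 0.0506) and with only the libraries compared (0.0877). Hoxd9 had 40, 43 and 42 reads in control but 41, 13 and 20 with JTE, so 1 JTE library was at the control level. Its call was lost without JTE 2 (−0.50, adjusted p = 0.183), without JTE 3 or any control library (0.0674 to 0.135), with DESeq2 (adjusted p = 0.0604) and with only the libraries compared (0.108). Without JTE 1 it was −1.42 (adjusted p = 4.00e-04).

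Hotairm1, an RNA of the HoxA cluster, had 93, 58 and 76 reads in wt, 10, 23 and 22 in control explants and 41, 54 and 50 with JTE (1.34 ± 0.25 against control, adjusted p = 2.83e-04). Without a stated strand setting, genes that overlap it on the opposite strand could raise or lower its count. Of the 5 tested RNAs inside the clusters it was the only one called in JTE versus control. TALE cofactors were higher for 3 and lower for 3 of 9. Epithelium markers were lower for 7 of 10 and higher for none, mesenchyme markers higher for 2 and lower for 7 of 16, and mesothelium and endothelium markers each lower for 5 of 6. The splenopancreatic list had 1 gene higher, Nkx3-2 at 0.77 ± 0.18, and 1 lower. Their part in the Hox values was not tested.

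With CTGF added, 4 members were higher and 4 lower than in control, where 61.1% of all genes were called (28.1% higher, 33.0% lower). This comparison shares the control libraries as well. The median log2 fold change was 0.10 against −0.03 over all genes, and the groups did not overlap for 8 members, against 64.8% of all genes. Hoxa5 had 234, 282 and 289 (0.57 ± 0.10, adjusted p = 1.64e-04). Hoxb2 (0.45 ± 0.14, adjusted p = 0.00976) and Hoxa4 (0.52 ± 0.20, adjusted p = 0.0334, groups overlapping) rose as well. Hoxb2 was lost without control 2 (adjusted p = 0.061), and Hoxa4 without control 1 (log2 0.27, adjusted p = 0.167), JTE with CTGF 2 (0.0694) or JTE with CTGF 3 (0.109) and with only the libraries compared (0.0677). Among those that fell, Hoxb3 had the most reads, with 105, 148 and 116 against 219, 253 and 249 (−0.81 ± 0.11, adjusted p = 7.06e-06). It alone met the criterion of the study, as did 11.8% of all genes. Hoxc5 fell from 21, 27 and 37 reads to 6, 8 and 16 (−1.33 ± 0.37, adjusted p = 0.00479) and Hoxa6 from 15, 18 and 15 to 4, 8 and 7 (−1.16 ± 0.34, adjusted p = 0.00664). Hoxb5 changed by −0.33 ± 0.14 (adjusted p = 0.044), a call lost without any 1 of 12 libraries, with −0.21 without control 3 (adjusted p = 0.223). Neighbours in a cluster thus moved in opposite directions, Hoxa5 up and Hoxa6 down, and Hoxb2 up and Hoxb3 down. Hotairm1 (1.38 ± 0.26) and Hoxb5os (1.08 ± 0.30) were the 2 of 5 tested cluster RNAs called, both higher. TALE cofactors were lower for 4 and higher for 2 of 9. Epithelium markers were lower for 7 of 10, mesenchyme markers lower for 7 and higher for 2 of 16, mesothelium lower for 5 of 6 (median log2 −1.73), endothelium lower for 5 and higher for 1 of 6 and urogenital markers lower for 3 of 4. Their part in the Hox values was not tested.

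JTE with CTGF against JTE alone, which shares the JTE libraries with the JTE comparison, gave 3 members higher and 3 lower, with 30.4% of all genes called (13.6% higher, 16.8% lower). No member met the criterion of the study, which 1.74% of all genes met. Hoxa4 was the highest of these at 0.72 ± 0.20 (adjusted p = 0.0131), followed by Hoxb2 at 0.53 ± 0.14 (adjusted p = 0.00846) and Hoxd8 at 0.46 ± 0.16 (adjusted p = 0.0374). Hoxa6 fell by 1.14 on the log2 scale (SE 0.34, adjusted p = 0.0166), Hoxd3 by 0.76 (SE 0.21, adjusted p = 0.0104) and Hoxb3 by 0.46 (SE 0.11, adjusted p = 0.0047). For all 6 the groups did not overlap, as for 7 of the 21 members and 40.2% of all genes. Without JTE with CTGF 3 the calls of Hoxa4 (adjusted p = 0.0608), Hoxd3 (0.059) and Hoxd8 (0.172) were lost, and without JTE 3 those of Hoxa6 (0.0969) and Hoxd8 (0.111). With only the libraries compared those of Hoxa6 (0.0508), Hoxb3 (0.0523) and Hoxd8 (0.0998) were lost, and with DESeq2 that of Hoxd8 (0.0629). Hoxa5 (0.18), called in both comparisons with control, did not pass here. Hoxb3 had its highest mean in the null libraries at 562 ± 20.5 normalised reads, with 336 ± 7.98 in wt, 249 ± 14.3 in control, 196 ± 21.6 with JTE and 142 ± 25.1 with JTE and CTGF. TALE cofactors were lower for 4 of 9 and higher for none, with Meis1 at −0.28 ± 0.08. Splenopancreatic markers were lower for 2 of 6 and higher for none, and no RNA inside the clusters was called.

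Whether Hox genes answered to the antagonist as they differed by genotype was tested by the difference between both changes, whose 4 groups share no library. Of 21 members 13 were lower in this contrast and 1 higher, where 42.9% of all genes tested were called, 21.5% in each direction. Without JTE 2 there were 6 lower members, and 7 without wt 2, S1pr2 null 2 or control 3. Called members included Hoxb8 (−1.77 ± 0.38, adjusted p = 0.00121), Hoxb3 (−1.09 ± 0.14, adjusted p = 8.87e-06) and Hoxb5 (−0.93 ± 0.18, adjusted p = 5.41e-04). By genotype all 3 rose, while with JTE Hoxb3 was lower and Hoxb8 (−0.62) and Hoxb5 (−0.25) did not pass. Antagonist in cultured buds and genotype in fresh organs differ in tissue and time as well, so the contrast does not separate these.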

How the data were processed

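Poly(A) RNA of 15 libraries was sequenced single-end with a strand-specific kit. The authors aligned reads to mm10 with GSNAP and Ensembl splice sites and deposited raw counts of uniquely aligned reads per gene (featureCounts 1.4.6), neither normalised nor pooled. Whether counting used the strand is not given in the sources used here. Symbols came from the GENCODE M21 annotation and were found for 24750 IDs (97.9%), and 542 had none. Groups and replicate numbers came from sample titles, and no label gives a batch.

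In R 4.3.3, edgeR 4.0.16 served for a quasi-likelihood F-test on the counts. TMM factors, filterByExpr (minimum count 10) and a single fit to all libraries were used, with a term for each group and none else. Benjamini-Hochberg adjustment ran over 16245 genes, with calls below 0.05. The biological coefficient of variation was 7.3%, so counting error is the larger part for genes below about 188 reads. For normalised reads each count was scaled to the mean effective library size, and levels per kb use the exon length in the table. Python 3.11.15 and matplotlib 3.10.9 served for sums and plots.

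Members and lists were chosen with earlier results of these data known. Members called without overlap between groups were named, at most 6 per direction with values per library, and called genes of a list, at most 4 by size of change. Beyond this rule, Hoxb3, Hoxb4, Hoxd9, members that did not pass, Hoxa11os and Shh were named after their values were seen. Lists were TALE cofactors, Polycomb and Trithorax genes, ParaHox genes, genes flanking the clusters, RNAs inside the clusters, and markers of mesenchyme, epithelium, splenopancreatic mesenchyme, stomach, intestine, urogenital tissue, neural crest, mesothelium, endothelium, blood, and muscle and limb. Values of 1 Hox gene and 1 listed gene are not reported here, while counts and sums include them. Alternatives were DESeq2 size factors, no filter, a replicate block, only the libraries compared, DESeq2 1.42.0, and each library left out.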

Additional observations from a re-analysis of the deposited data

Results flagged for a closer look

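The JTE response and the difference by genotype were compared by a test of their difference. It passed for 13 members whose JTE response lay below their difference by genotype, as log2 differences between both changes: Hoxb8 (−1.77), Hoxc5 (−1.09), Hoxb3 (−1.09), Hoxa6 (−0.996), Hoxb5 (−0.93), Hoxa4 (−0.82), Hoxd8 (−0.78), Hoxb2 (−0.70), Hoxb6 (−0.64), Hoxb7 (−0.60), Hoxa3 (−0.59), Hoxb4 (−0.45) and Hoxa5 (−0.38). Of all genes tested 42.9% passed, 21.5% as lower and 21.5% as higher. Without control 3, Hoxb6 (−0.40, adjusted p = 0.143, edgeR) and Hoxb4 (−0.28, adjusted p = 0.0916) were among those lost. Over 20 alternatives the call of Hoxb7 was lost in 15, those of Hoxa6 and Hoxb6 in 7 each and that of Hoxa5 in 6. Hoxc5 was lost in 5, and Hoxa4 and Hoxb4 in 4 each. Hoxa3, Hoxb2, Hoxb3, Hoxb5, Hoxb8 and Hoxd8 were lost in 0.

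Reads of the untested Hox paralogues 10 to 13 were most numerous in 1 library, S1pr2 null 2, with 36 reads against 0 to 5 in each of the other 14 libraries. That library had 11 genes with at least 4 reads there and no more than 0.25 times as many in any other library, and 5 of these were Hox members. The same count was 0 to 32 genes in the other libraries, none of them Hox members.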

How the results depend on the processing

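No call of a Hox gene changed direction under any alternative. In S1pr2 null versus wt, the number of members called higher was 12 to 16 under the other tools and settings and 10 to 15 with 1 library left out, and 0 were lower throughout. In control explants versus wt 9 to 11 were lower and 1 to 2 higher with 1 library left out, and 2 were higher without control 1. In JTE versus control 2 to 3 were higher and 1 to 3 lower, and only 1 was lower with only the libraries compared, with DESeq2, without control 3 and without JTE 2. In JTE with CTGF versus control 3 to 5 were higher and 3 to 4 lower, and 2 were higher with only the libraries compared. In JTE with CTGF versus JTE 1 to 4 were higher and 2 to 3 lower, with 1 higher without JTE with CTGF 3 and 1 lower with only the libraries compared. In the difference of both responses 6 to 13 were lower and 1 was higher.

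Outside the difference of both responses, most calls lost without a single library were given beside their results. In addition, without JTE with CTGF 1 Hoxa6 (0.0782) and without JTE 2 Hoxd8 (0.0999) or JTE with CTGF 2 Hoxd8 (0.0542) missed the threshold of adjusted p in JTE with CTGF versus JTE. The cause was not tested. DESeq2 size factors moved libraries by −0.02 to 0.01 on the log2 scale.

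Deviations of same-numbered libraries correlated at −0.10 to 0.23 over 30 pairs, with 2 pairs over 0.1. Those 2 were of control and JTE, at 0.131 for replicate 2 and 0.228 for replicate 3, with −0.04 for replicate 1. Libraries of different numbers were not compared, so whether replicate numbers pair the libraries stays undecided. With a replicate block, 14 members were higher and 0 lower in S1pr2 null versus wt, and 3 and 2 in JTE versus control. Hoxd8 in JTE with CTGF versus JTE (adjusted p = 0.0517) and Hoxb7 in the difference of responses (adjusted p = 0.0644) were no longer called. Genes with under 100 reads, such as Hoxc6 and Hoxd9, are limited by depth.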
